A study of Mus musculus with 6 samples.

Results

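The loop of Henle and the distal nephron are the tubule segments that recover salt after the proximal tubule, and 9 genes of that recovery were followed in RNA sequencing of mouse glomerular preparations. The genes were chosen by name: Slc12a1, Umod and Kcnj1 of the thick ascending limb, Slc12a3 of the distal convoluted tubule, the sodium channel subunits Scnn1a, Scnn1b and Scnn1g, and the steroid pathway genes Nr3c2 and Hsd11b2. All 9 were found among 54838 gene identifiers and all 9 were among the 17086 genes with enough counts to be tested. Libraries came from 3 mice labelled KO, with the genotype bPIX -/- restricted to podocytes per the study's title, and 3 mice labelled CTRL with the genotype wild type. All mice were 3 weeks old, and no treatment is given in the labels. The promoter that removes bPIX in podocytes and the method of glomerular isolation are stated in neither the title nor the labels. The KO libraries carry animal numbers 146, 147 and 148, and the CTRL libraries 157, 162 and 163.

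In the thick ascending limb, salt enters the cell through the sodium-potassium-chloride cotransporter encoded by Slc12a1, and Kcnj1 encodes the potassium channel that returns potassium to the urine so that the cotransporter can go on working. Umod encodes uromodulin, the protein these cells shed into the urine in large amounts. Further on, the thiazide-sensitive cotransporter encoded by Slc12a3 takes up sodium with chloride, and in the connecting tubule and collecting duct the epithelial sodium channel, built from the products of Scnn1a, Scnn1b and Scnn1g, performs the final step. Aldosterone sets that step through the mineralocorticoid receptor, encoded by Nr3c2, which cortisol-like steroids would occupy if the enzyme encoded by Hsd11b2 did not inactivate them. These genes are best known from tubule cells, although the mineralocorticoid receptor is also found in other kidney cells, podocytes included.

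Deposited file names assign the opposite group to every library. Groups here follow the sample labels; under the file names each difference would keep its size and change its sign. Gene counts per library were 40246366 to 51917945 in the libraries labelled KO and 39841396 to 46187515 in those labelled CTRL. Arhgef7, which encodes bPIX, stood at 133, 89.6 and 85.9 CPM in KO 146, 147 and 148, against 91.9, 94.1 and 88.4 CPM in CTRL 157, 162 and 163, where CPM are counts scaled to a common library size. The targeted gene therefore did not separate the groups (log2 fold change 0.17, SE 0.17, edgeR adjusted p = 0.544). As defining glomerular genes, 16 podocyte markers summed to 9637, 4226 and 2848 CPM in KO 146, 147 and 148, against 1308 to 1539 CPM in the libraries labelled CTRL. A list of 22 proximal tubule markers summed to 20720, 31500 and 34694 CPM in the same KO libraries, against 43059 to 45647 CPM in the libraries labelled CTRL. KO 146 thus had the highest podocyte and the lowest proximal tubule levels of the 6 libraries. The Y-linked gene Ddx3y was present at 58.5 to 71.1 CPM in the libraries labelled KO and 55.3 to 57.5 CPM in those labelled CTRL, while Xist did not exceed 0.0965 CPM in any library.

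RefSeq promoter windows (build GRCm38.p6) were matched for 7 of the 9 genes, all but Scnn1a and Hsd11b2. Shown are stretches of 225 bases for the neighbouring genes Scnn1b and Scnn1g, whose levels did not overlap between the groups, and for Umod and Slc12a3, whose levels did. Every stretch begins 250 bases before the transcription start and ends short of it, so the bases next to the start are not printed. Each is written 5′ to 3′ on the gene's own strand, and capitals mark a motif: GTTAAT (a half-site of the tubule factor HNF1), TATAAA (the TATA box) or GGGCGG (the GC box), on either strand. The stretches lie at chr7:121864788-121865012 (plus strand, Scnn1b), chr7:121734229-121734453 (plus strand, Scnn1g), chr7:119479288-119479512 (minus strand, Umod) and chr8:94328958-94329182 (plus strand, Slc12a3).
Scnn1b: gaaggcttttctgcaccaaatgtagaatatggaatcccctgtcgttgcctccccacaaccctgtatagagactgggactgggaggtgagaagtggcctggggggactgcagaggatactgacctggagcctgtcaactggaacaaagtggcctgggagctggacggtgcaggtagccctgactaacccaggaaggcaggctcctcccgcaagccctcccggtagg
Scnn1g: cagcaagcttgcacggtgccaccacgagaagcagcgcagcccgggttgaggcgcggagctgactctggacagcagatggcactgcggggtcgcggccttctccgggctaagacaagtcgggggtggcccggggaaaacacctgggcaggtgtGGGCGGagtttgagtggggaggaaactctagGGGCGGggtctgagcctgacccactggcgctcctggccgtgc
Umod: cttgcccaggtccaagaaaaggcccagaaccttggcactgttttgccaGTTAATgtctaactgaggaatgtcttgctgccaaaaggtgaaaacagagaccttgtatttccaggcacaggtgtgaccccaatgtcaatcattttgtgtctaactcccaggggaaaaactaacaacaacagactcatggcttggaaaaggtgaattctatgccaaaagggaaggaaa
Slc12a3: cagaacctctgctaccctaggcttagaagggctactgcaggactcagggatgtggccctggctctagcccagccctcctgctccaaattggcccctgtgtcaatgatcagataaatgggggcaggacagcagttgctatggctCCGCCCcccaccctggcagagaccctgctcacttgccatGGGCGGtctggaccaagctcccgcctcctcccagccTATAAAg

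The motifs were searched on both strands of the full window of 300 bases, which runs from 250 bases before to 50 bases after the start. Umod alone of the 7 held GTTAAT, beginning 202 bases before the start, and 7.10% of all 32851 windows held it. Slc12a3 alone held TATAAA, beginning 32 bases before the start, against 13.6% of all windows. GGGCGG was found in 5 of the 7, against 35.7% of all windows, with 2 copies in Scnn1g that begin 98 and 67 bases before the start. In Scnn1b the single copy lies on the opposite strand, 22 bases before the start and outside the printed stretch. The core of the element bound by mineralocorticoid and glucocorticoid receptors, searched as ACANNNTGT, was in none of the 7 windows and in 6.85% of all. No motif overlapped another in these 7 windows. Scnn1g and Scnn1b lie on chromosome 7 on the same strand, 96.6 kb apart on GRCm38, with 1 annotated gene, Gm44740, lying wholly between them.

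The design asks whether transcripts differ between the preparations labelled KO and those labelled CTRL. All 9 salt transport genes had lower mean levels in the libraries labelled KO, with log2 fold changes between -0.54 and -0.16 (50.7% of all tested genes were negative), and 0 of the 9 passed the test (edgeR quasi-likelihood test, Benjamini-Hochberg adjusted p = 0.109 to 0.582). Over all tested genes 1.01% passed, 0.421% in the lower direction. The 3 sodium channel subunits and Hsd11b2 had every KO value below every CTRL value, whereas the loop genes, Slc12a3 and Nr3c2 overlapped between the groups. Values of KO entirely below CTRL were found in 4 of the 9 genes, against a background of 19.6% of all tested genes. The same 4 genes had an unadjusted p below 0.05, which 11.8% of all tested genes reached in the lower direction. The median log2 fold change was -0.31 over the 9 genes and -0.006 over all tested genes. In such bulk preparations, fewer cells of a segment and less RNA per cell cannot be told apart.

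**Figure D1:**
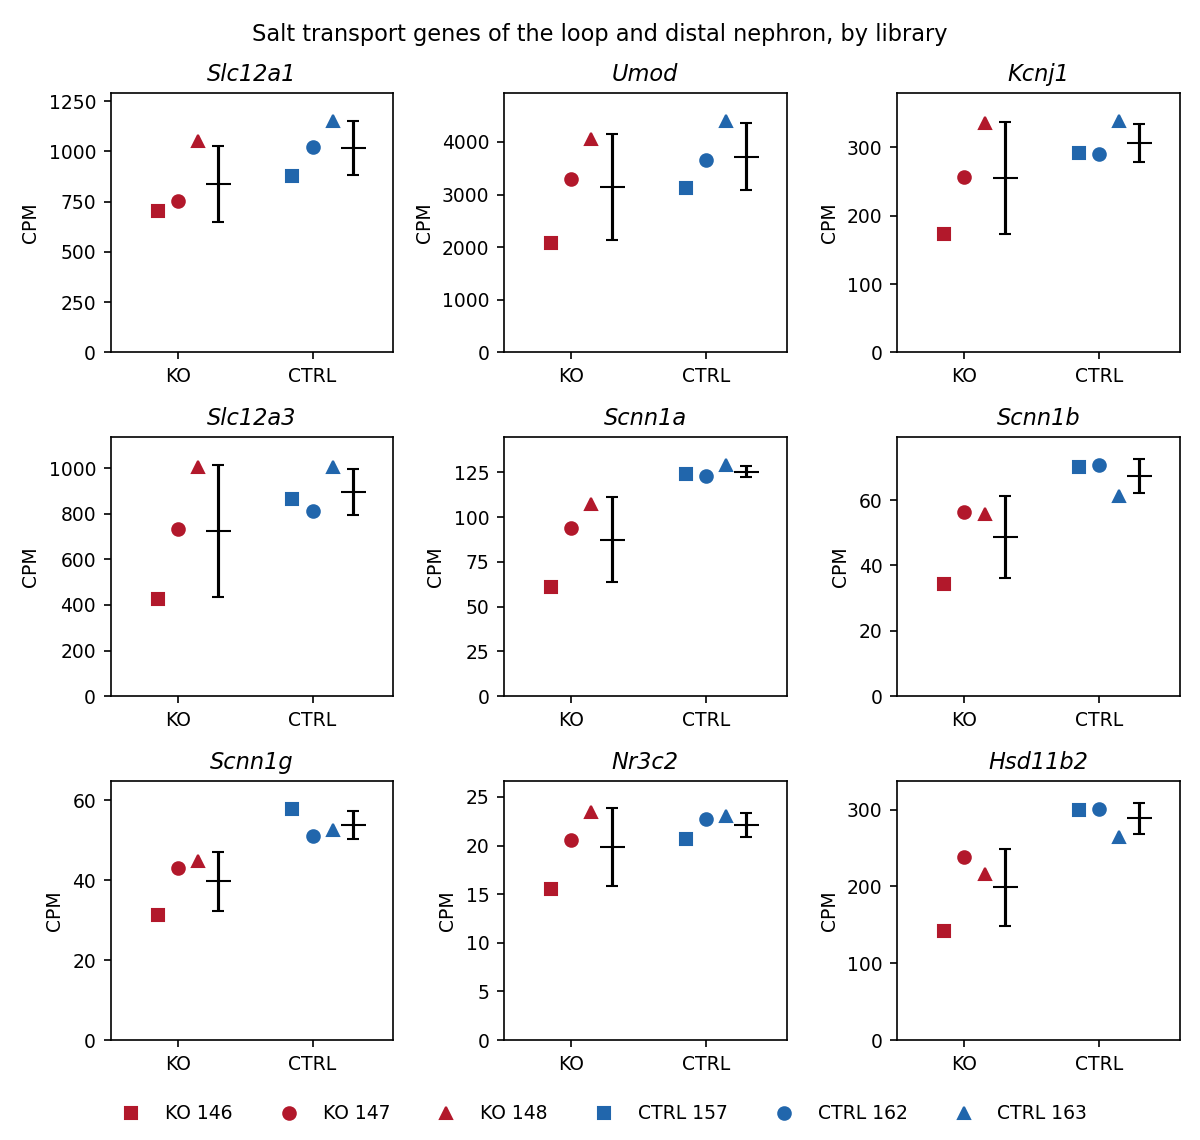
Level of each gene in CPM (linear axes from 0) in the 3 libraries labelled KO (red, left) and the 3 labelled CTRL (blue, right); black bars give the mean and SD. Scnn1a, Scnn1b, Scnn1g and Hsd11b2 have every red point below every blue one, and KO 146 is the lowest point in all 9 panels.

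Slc12a1 (ENSMUSG00000027202, chromosome 2, 125152505 to 125230002, plus strand, GRCm38), the apical salt entry step of the thick ascending limb, was at 704, 752 and 1052 CPM in KO 146, 147 and 148, against 880, 1023 and 1150 CPM in CTRL 157, 162 and 163. KO 146 and 147 lay below every CTRL library and KO 148 lay among them. The log2 fold change was -0.28 (SE 0.19, edgeR adjusted p = 0.361). Umod (ENSMUSG00000030963, chromosome 7, 119462711 to 119479282, minus strand) stood at 2076, 3302 and 4059 CPM in KO 146, 147 and 148, against 3120, 3655 and 4393 CPM in CTRL 157, 162 and 163. Only KO 146 was outside the CTRL range, and the fold change of -0.24 on the log2 scale was smaller than its SE of 0.27 (edgeR adjusted p = 0.582). An antisense gene whose exons overlap those of Umod, Gm44588, had 0 to 2 counts in any library. Kcnj1 (ENSMUSG00000041248, chromosome 9, 32372493 to 32399197, plus strand), the potassium recycling channel, was at 173, 257 and 336 CPM in KO 146, 147 and 148, against 291, 290 and 338 CPM in CTRL 157, 162 and 163. Here KO 148 reached the level of the CTRL libraries, and the log2 fold change was -0.26 (SE 0.23, edgeR adjusted p = 0.477).

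Slc12a3 (ENSMUSG00000031766, chromosome 8, 94329201 to 94366214, plus strand), the cotransporter blocked by thiazide diuretics, had the widest relative spread of the 9 genes among the libraries labelled KO. It was at 427, 735 and 1006 CPM in KO 146, 147 and 148, against 865, 811 and 1006 CPM in CTRL 157, 162 and 163. KO 148 equalled the highest CTRL library to the printed precision, and the log2 fold change was -0.31 (SE 0.30, edgeR adjusted p = 0.520). Without KO 146 it was -0.05. The 3 loop genes and Slc12a3 thus shared the order of the KO libraries, lowest in 146 and highest in 148. Scnn1a, Scnn1g, Nr3c2 and the summed proximal tubule markers had the same order.

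The sodium channel genes had narrower CTRL ranges, relative to their level, than the loop genes and Slc12a3. Scnn1a (ENSMUSG00000030340, chromosome 6, 125320659 to 125344943, plus strand), which encodes the alpha subunit, was at 60.9, 93.9 and 107 CPM in KO 146, 147 and 148, against 124, 123 and 129 CPM in CTRL 157, 162 and 163. All KO values were below the lowest CTRL value (log2 fold change -0.52, SE 0.20, edgeR adjusted p = 0.143). Scnn1b (ENSMUSG00000030873, chromosome 7, 121865038 to 121918514, plus strand), the beta subunit gene, was at 34.3, 56.3 and 55.8 CPM in KO 146, 147 and 148, against 70.0, 70.7 and 61.3 CPM in CTRL 157, 162 and 163. The nearest pair, KO 147 and CTRL 163, were 56.3 and 61.3 CPM, and the log2 fold change was -0.46 (SE 0.20, edgeR adjusted p = 0.170). Scnn1g (ENSMUSG00000000216, chromosome 7, 121734479 to 121768475, plus strand), the gamma subunit gene, was at 31.3, 43.0 and 44.8 CPM in KO 146, 147 and 148, against 57.8, 51.0 and 52.5 CPM in CTRL 157, 162 and 163. Its log2 fold change was -0.44 (SE 0.14), with the smallest adjusted p of the 9 genes (edgeR adjusted p = 0.109).

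Of the steroid pathway genes, the enzyme gene had groups that did not overlap and the receptor gene had groups that did, and neither passed the test. The ratio of Nr3c2 to Hsd11b2 overlapped between the groups (exact permutation p = 0.2). Hsd11b2 (ENSMUSG00000031891, chromosome 8, 105518755 to 105523988, plus strand) was at 142, 238 and 216 CPM in KO 146, 147 and 148, against 300, 301 and 265 CPM in CTRL 157, 162 and 163. Its log2 fold change of -0.54 (SE 0.20, edgeR adjusted p = 0.130) was the most negative of the 9 genes. Nr3c2 (ENSMUSG00000031618, chromosome 8, 76899442 to 77245012, plus strand), which encodes the mineralocorticoid receptor, was at 15.5, 20.6 and 23.4 CPM in KO 146, 147 and 148, against 20.7, 22.7 and 23.0 CPM in CTRL 157, 162 and 163. KO 148 was the highest of the 6 libraries, and the log2 fold change was -0.16 (SE 0.16, edgeR adjusted p = 0.514). Gm10649, a noncoding gene on the other strand whose exons overlap those of Nr3c2, had 4 to 8 counts per library. Nr3c2 was the least counted of the 9 genes, with 853 to 1062 reads in the libraries labelled KO and 866 to 1020 in those labelled CTRL.

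The single-library dependence was tested by leaving libraries out. Without KO 146, Scnn1a, Scnn1b, Scnn1g and Hsd11b2 fell in the edgeR fit, by 0.33, 0.27, 0.30 and 0.35 on the log2 scale, with adjusted p values of 0.0183, 0.0367, 0.0220 and 0.0201. In that fit 6.62% of 17339 tested genes were lower, and the other 5 salt transport genes did not pass. Without KO 148, Scnn1a alone passed (log2 fold change -0.70, SE 0.19, edgeR adjusted p = 0.0468; 5.40% of 17510 tested genes lower). With any other library left out, 0 of the 9 passed, and adjusted p values spanned 0.0183 to 0.940 over the 13 alternatives. KO 146 was the lowest of the 6 libraries for all 9 genes, which held for 36.8% of all tested genes. Without KO 148, 8 of the 9 genes, all but Umod, had both remaining KO values below every CTRL value, as had 27.9% of all tested genes. Leaving out a library can only keep or raise this count, and it stayed at 4 without any other library.

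**Figure D2:**
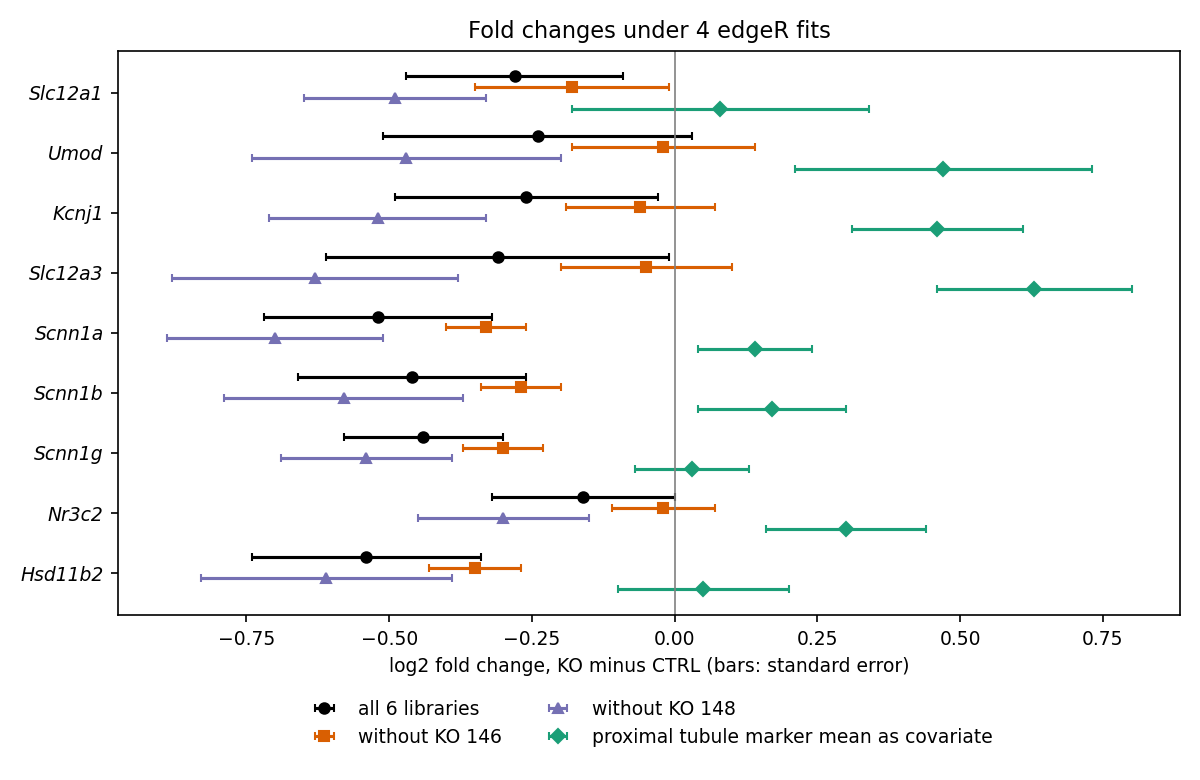
Log2 fold change of each gene, KO minus CTRL, with its standard error, in the edgeR fit to all 6 libraries, without KO 146, without KO 148, and with the proximal tubule marker mean as a covariate. All points lie below 0 in the first 3 fits and above 0 with the covariate.

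Markers of other cells moved with these values. The proximal tubule marker mean was 8.89, 9.43 and 9.59 log2 CPM in KO 146, 147 and 148, against 9.98, 9.89 and 9.90 in CTRL 157, 162 and 163. All 22 genes of the list had negative values (median log2 fold change -0.56), and the amino acid transporter genes Slc7a13 and Slc6a18 passed (-0.97 and -0.67, edgeR adjusted p = 0.0332 and 0.0402). KO lay entirely below CTRL in 19 of the 22, against 19.6% of all tested genes, and 15 had an unadjusted p below 0.05 (edgeR), against 11.8%. Glomerular markers ran the other way: 16 of 16 podocyte, 13 of 13 endothelial and 11 of 11 mesangial and smooth muscle genes had positive values, with medians of 2.06, 1.74 and 2.06. Every one had all KO values above all CTRL values, against 21.9% of all tested genes. Unadjusted p was below 0.05 (edgeR) for 15, 13 and 11 of them, against 17.5%, and 0 passed (smallest edgeR adjusted p of each list 0.0594, 0.0753 and 0.0649). With the proximal tubule mean as a covariate, all 9 salt transport genes had positive log2 fold changes, from 0.03 for Scnn1g to 0.63 for Slc12a3 (edgeR adjusted p = 0.126 to 0.919). With the mean of the glomerular lists as a covariate they were again all positive, from 0.05 to 0.71, with adjusted p values of 0.0766 to 0.876. The negative direction given for these genes is that of counts scaled to a common library size (TMM), and the sign changed in both covariate fits. Each covariate itself separated the groups, with every KO library on one side of every CTRL library. These fits therefore cannot part the group from the covariate, and no conclusion is drawn from the change of sign. The part of the marker levels in the differences was not tested.

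**Figure D3:**
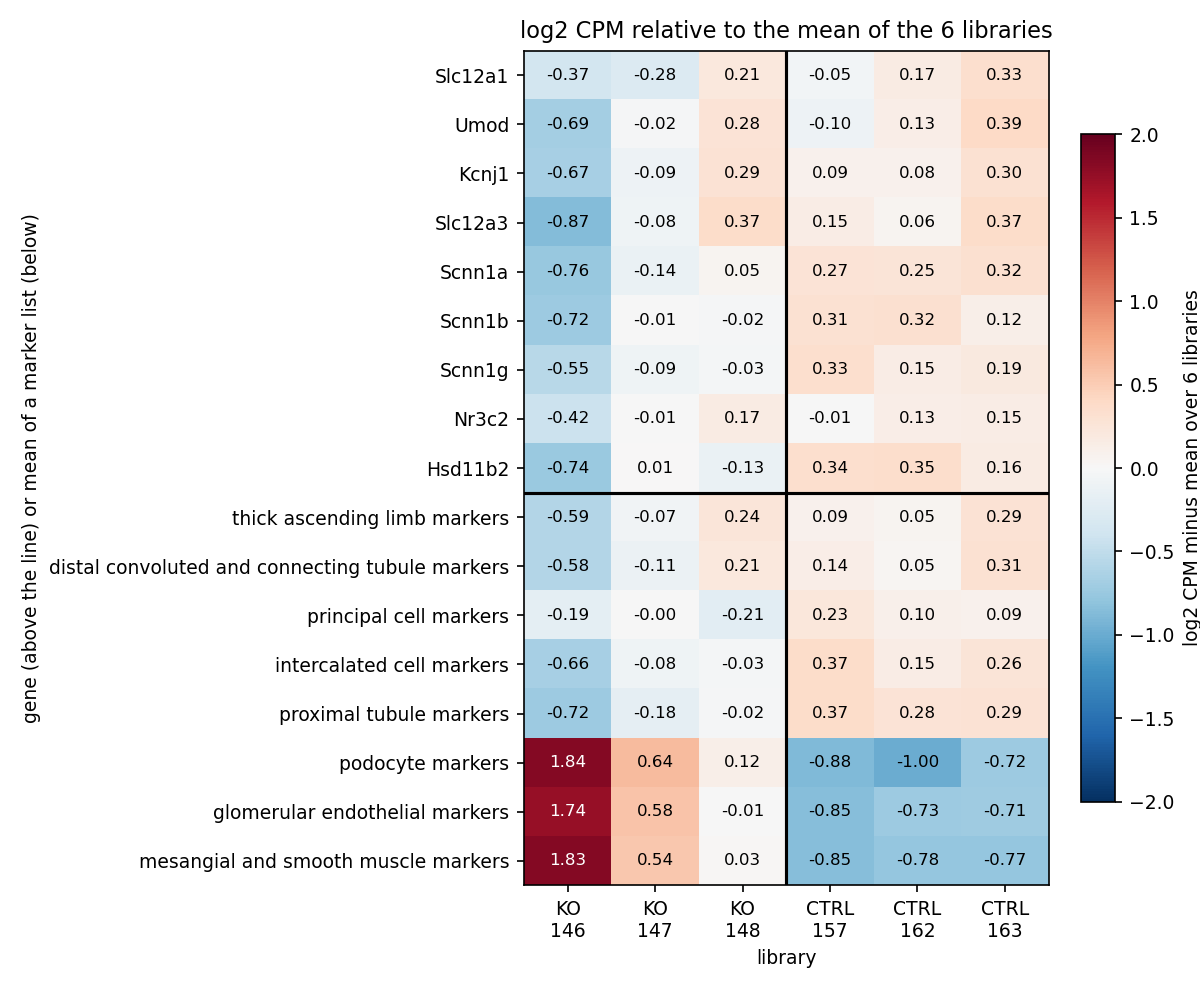
Log2 CPM of the 9 genes (above the line) and mean log2 CPM of 8 marker lists (below), each minus its own mean over the 6 libraries; the 3 left columns are labelled KO, the 3 right columns CTRL. The principal cell row includes Gata3, which also stands in the mesangial list and is left out of the principal cell mean used in the text. KO 146 has the lowest value in each of the 9 gene rows, and podocyte markers run from 1.84 in KO 146 to at most -0.72 in the libraries labelled CTRL.

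Marker lists of the segments in which these genes act varied in the same libraries. Thick ascending limb markers averaged 4.94, 5.46 and 5.77 log2 CPM in KO 146, 147 and 148, against 5.62, 5.58 and 5.82 in CTRL 157, 162 and 163, with 10 of 11 tested genes negative and a median log2 fold change of -0.17. Kcnj1 followed that mean closely, lying 2.49, 2.55 and 2.62 log2 units above it in KO 146, 147 and 148, against 2.56, 2.6 and 2.58 in CTRL 157, 162 and 163. Umod lay 6.08, 6.23 and 6.22 log2 units above the same mean in the KO libraries, against 5.98, 6.25 and 6.28 in the CTRL libraries. Slc12a3 stood 2.75, 3.07 and 3.19 above the markers of the distal convoluted and connecting tubule in KO 146, 147 and 148, against 3.05, 3.05 and 3.10 in CTRL 157, 162 and 163, so KO 146 alone lay apart. Intercalated cell markers, from cells that share the collecting duct with the sodium channel, were negative in 10 of 10 genes with a median of -0.48 and 0 passing. KO lay entirely below CTRL in all 10, and 8 had an unadjusted p below 0.05 in that direction (edgeR), against 19.6% and 11.8% of all tested genes. KO lay entirely below CTRL in 1 of 11 thick ascending limb markers and 2 of 10 of the distal convoluted and connecting tubule (background 19.6%). Principal cell markers, from the cells that carry the channel, were negative in 8 of 9 tested genes with a median of -0.43. Groups did not overlap in 4 of the 9 with KO lower and 1 with KO higher, against 19.6% and 21.9% of all tested genes. One gene of that list, Gata3, also stands in the mesangial list and was left out of the mean used next. Scnn1a lay 1.74, 2.08 and 2.44 log2 units above the principal cell mean in KO 146, 147 and 148, against 2.10, 2.25 and 2.34 in CTRL 157, 162 and 163. Hsd11b2 lay 2.96, 3.42 and 3.45 above it in the KO libraries, against 3.37, 3.54 and 3.38 in the CTRL libraries. The groups therefore overlapped on this measure for both genes, with KO 146 below every CTRL library, and they also overlapped for Scnn1b, Scnn1g and Nr3c2 against the same mean and for Slc12a1 against the thick ascending limb mean. Of 6 genes of macula densa and renin cells, which lie against the glomerulus, 3 were positive and 0 passed (edgeR, smallest adjusted p over the list 0.0594). Their median log2 fold change was 0.53. Groups did not overlap in 3 of the 6 with KO higher and 2 with KO lower, against 21.9% and 19.6% of all tested genes. Ren1, which encodes renin and had the highest CPM of the 6, was at 143, 40.7 and 49.5 CPM in KO 146, 147 and 148, against 36.6, 25.1 and 32.3 CPM in CTRL 157, 162 and 163.

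Set against the proximal tubule mean of the same library, a measure that does not depend on scaling, all 9 genes had higher mean levels in the libraries labelled KO, none of them past a test; for Hsd11b2 the difference was -0.04 without KO 147 and -0.00 without CTRL 163. Nr3c2 was -4.93, -5.06 and -5.04 log2 units from that mean in KO 146, 147 and 148, against -5.60, -5.38 and -5.37 in CTRL 157, 162 and 163. Its groups did not overlap (difference 0.44, exact permutation p = 0.1). Kcnj1 and Scnn1g were separated in the same direction, with differences of 0.31 and 0.17 (exact permutation p = 0.1 each). The other 6 genes overlapped, with differences of 0.05 for Hsd11b2 to 0.34 for Umod and exact permutation p values of 0.2 to 0.6. The smallest p that 3 against 3 libraries allow is 0.1, so no gene could pass 0.05, and the adjusted values over the 9 genes were 0.3 to 0.6.

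**Figure D4:**
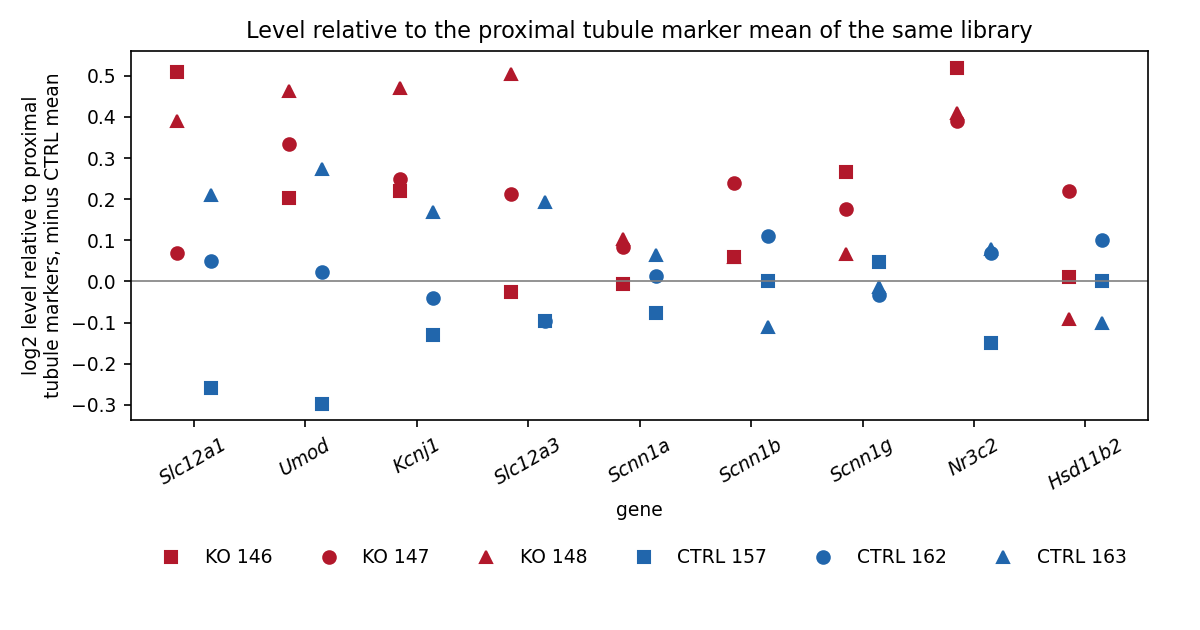
Log2 level of each gene minus the proximal tubule marker mean of the same library, shown relative to the CTRL mean of that gene (red, left, KO; blue, right, CTRL; 1 point per library). Kcnj1, Scnn1g and Nr3c2 have every red point above every blue one, while Hsd11b2 and Scnn1a are mixed.

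Within-library ratios between the genes showed how far they moved together. A set of 7 ratios was tested, with differences between the groups from -0.09 to 0.39 on the log2 scale and adjusted p values of 0.7 to 1 (exact two-sided permutation, smallest possible raw p 0.1). Hsd11b2 was counted 4.13, 4.22 and 3.87 times as often as Scnn1b in KO 146, 147 and 148, against 4.28, 4.25 and 4.33 times in CTRL 157, 162 and 163. This ratio was the most even of the 7, and although its groups did not overlap the log2 difference was -0.08 (exact permutation p = 0.1). Umod was counted 2.95, 4.39 and 3.86 times as often as Slc12a1 in KO 146, 147 and 148, against 3.55, 3.57 and 3.82 times in CTRL 157, 162 and 163. Here the KO libraries stood on both sides of the CTRL range (difference 0.02, exact permutation p = 0.9). The subunit ratios Scnn1a to Scnn1b and Scnn1g to Scnn1b differed by -0.06 and 0.04 (exact permutation p = 0.7 and 0.8). The widest difference was that of Nr3c2 to Hsd11b2, at 0.11, 0.0866 and 0.108 in KO 146, 147 and 148, against 0.0692, 0.0756 and 0.0868 in CTRL 157, 162 and 163. KO 147 fell just inside the CTRL range (log2 difference 0.39, exact permutation p = 0.2).

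The contrast between the channel with Hsd11b2 and the loop genes was not separated. The mean log2 CPM of Scnn1a, Scnn1b, Scnn1g and Hsd11b2 minus that of Slc12a1, Umod and Kcnj1 was -3.52, -3.33 and -3.69 in KO 146, 147 and 148, against -3.07, -3.26 and -3.54 in CTRL 157, 162 and 163. The groups overlapped, at -3.51 ± 0.18 and -3.29 ± 0.24 (SD, n = 3 each). Slc12a3 and Nr3c2 were in neither set. Every gene of the first set had separate groups and no gene of the second did, so no test was made. The fold changes of the channel genes are therefore not shown to differ from those of the loop genes.

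Levels between genes were compared as CPM per kilobase of all exons joined. In both groups Umod was highest, at 1138 ± 362 in the libraries labelled KO and 1347 ± 231 in those labelled CTRL (SD, n = 3 each). Nr3c2 was lowest, at 3.06 ± 0.613 in KO and 3.43 ± 0.192 CPM per kilobase in CTRL. Between them the order in both groups was Slc12a1, Hsd11b2, Kcnj1, Slc12a3, Scnn1a, Scnn1b and Scnn1g. Ranges of Slc12a1 (122 to 183 in KO, 153 to 200 in CTRL) and Hsd11b2 (76.9 to 129 in KO, 144 to 163 in CTRL) overlapped, as did those of Kcnj1 and Slc12a3. In KO, the range of Hsd11b2 also overlapped those of Kcnj1 (51.9 to 101) and Slc12a3 (38.4 to 90.5). The subunits ranked Scnn1a, Scnn1b, Scnn1g at 30.3, 25.6 and 18.0 CPM per kilobase in CTRL without overlap, and at 21.1, 18.5 and 13.3 in KO, where neighbours overlapped. The place of Slc12a3 rests on the length used. Its joined exons span 11.12 kb, against 3.3 kb for its principal transcript, and with that length it stood at 219 ± 87.9 CPM per kilobase in KO and 271 ± 30.4 in CTRL. It then ranked above Slc12a1, which had 180 ± 40.7 in KO and 219 ± 29.2 in CTRL by its own principal transcript.

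The wider salt transport pathway also had more negative than positive values. A list of 40 further genes held chloride channels and sodium pumps, kinases of the WNK pathway, regulators and proteases of the sodium channel, steroid response genes and claudins, and 39 were tested; 9 of the 40 also stand in a marker list. Of these, 33 had negative and 6 positive log2 fold changes, with a median of -0.29, and 0 passed in either direction (edgeR, smallest adjusted p = 0.0753). Groups did not overlap in 12 with KO lower and 2 with KO higher, against 19.6% and 21.9% of all tested genes. With unadjusted p values below 0.05 there were 10 lower and 1 higher, against 11.8% and 17.5%.

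Sgk1, a kinase that aldosterone induces and that keeps the sodium channel at the cell surface, had the highest fold change of the list. It was at 306, 166 and 132 CPM in KO 146, 147 and 148, against 70.5, 59.9 and 87.1 CPM in CTRL 157, 162 and 163 (log2 fold change 1.47, SE 0.32, edgeR adjusted p = 0.0753). All KO values were above all CTRL values, and the order of the KO libraries was that of the podocyte markers and the reverse of that of Scnn1a. Its lowest log2 fold change over the alternatives was 0.23, with the glomerular covariate (edgeR adjusted p = 0.630), and it rose in DESeq2 (adjusted p = 2.34e-04) and in edgeR without KO 146 (1.03, adjusted p = 0.0177) or KO 148 (1.70, adjusted p = 0.0151). In these 3 fits 12.1%, 10.5% and 12.9% of tested genes were higher. Chosen with Sgk1 for the smallest p values on the positive side were Slc12a2, the widely expressed relative of Slc12a1, at 0.42, the WNK pathway kinase gene Oxsr1 at 0.13 and Per1, a clock gene that aldosterone also induces, at 0.38 (edgeR adjusted p = 0.181, 0.312 and 0.379). Steroid response genes of the list also included Fkbp5 at -0.44, Tsc22d3 at 0.23 and Zbtb16 at 0.35 (edgeR adjusted p = 0.125, 0.426 and 0.671).

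On the negative side, Slc9a3, the sodium-proton exchanger of proximal tubule and thick ascending limb, was at 75.5, 85.8 and 113 CPM in KO 146, 147 and 148, against 133, 140 and 149 CPM in CTRL 157, 162 and 163 (log2 fold change -0.62, SE 0.15, edgeR adjusted p = 0.0770). Cldn10, a claudin gene of the thick ascending limb marker list, had 95.7, 127 and 142 CPM in the KO libraries, against 191, 176 and 181 CPM in the CTRL libraries (-0.59, SE 0.15, edgeR adjusted p = 0.0781). Its counts pool all transcripts of the gene. Hsd11b1, the enzyme that regenerates active glucocorticoid and so works against Hsd11b2, was at 20.9, 23.5 and 16.9 CPM in KO 146, 147 and 148, against 33.0, 39.3 and 27.1 CPM in CTRL 157, 162 and 163. Its log2 fold change was -0.70 (SE 0.17, edgeR adjusted p = 0.0775). Slc26a4, the chloride-bicarbonate exchanger of intercalated cells, had a value of -0.63 (edgeR adjusted p = 0.107). All 4 of these genes had every KO value below every CTRL value, against 12 of the 39 tested genes of the list. They were named for the smallest p values among its negative genes. This separation, and passing in the fits given next, therefore rest in part on that choice. All 4 fell in DESeq2 (adjusted p = 0.00683 to 0.0385), where 5.89% of tested genes were lower. Slc9a3, Cldn10 and Hsd11b1 fell in edgeR with no filter on low counts (adjusted p = 0.0148 to 0.0204; 1.31% lower), and Slc9a3 and Cldn10 also without KO 146 (0.0263 and 0.00657) or KO 148 (0.0147 and 0.0228). With the proximal tubule and the glomerular covariate, the log2 fold change was -0.22 and -0.16 for Slc9a3, -0.11 and -0.08 for Cldn10, -0.14 and -0.18 for Slc26a4, and -0.84 and -0.85 for Hsd11b1, none past the threshold in edgeR.

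Profiles over the 6 libraries were compared among 10732 genes of at least 5 mean CPM in both groups, by the root mean square difference of log2 CPM after removing each gene's mean. Closest to Kcnj1 were Cadps2, Kng2 and Slc16a7, at 0.021, 0.029 and 0.030 log2 units, where Kcnj1 itself varied by 0.328. Nearest to Slc12a3 were Ptgfr, Tmem52b and Enpp6, at 0.053, 0.063 and 0.066, against its own 0.420. Nearest to Scnn1a were Tmem116, Slc6a20a and Slc46a1, at 0.027, 0.034 and 0.034, against its own 0.374. For Scnn1b they were Slc6a19, Tmem106a and Olfm4, at 0.029, 0.032 and 0.037. Kng2 stands in the thick ascending limb marker list, Tmem52b in that of the distal tubule and Slc6a19 in that of the proximal tubule. Hsd11b2 was the only one of the 9 genes with another of them among its nearest 3, Scnn1b at 0.054. The nearest gene was Slc2a4 for Slc12a1, Stk32b for Umod, Id2 for Scnn1g and Dusp18 for Nr3c2, at 0.013 to 0.061. With 6 points per gene, these are descriptions of likeness and carry no test.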

How the data were processed

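The deposited values are raw counts per gene, 1 file per library, with no normalization. The tools named in the submitters' processing notes are STAR 2.6.0, HTSeq 0.11.1, fastp 0.19.5 and DESeq2, without their roles; the same notes list the human build GRCh37 although the identifiers are mouse, so the authors' build is uncertain, and no strand setting is stated there. Lines that name no gene, 22.51% to 29.63% of records for reads aligned to several places and at most 3.41% for any other line, were left out. Names and positions came from GENCODE M21 (GRCm38), which named 54809 of 54838 identifiers.

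Counts were tested in R 4.3.3 with edgeR 4.0.16 (TMM scaling, filterByExpr with a minimum count of 10, robust quasi-likelihood F test, no covariate), with Benjamini-Hochberg adjustment over all 17086 tested genes and a threshold of 0.05. SE is the absolute log2 fold change over the square root of F. Log2 CPM used a prior count of 2. limma-voom 3.58.1 and DESeq2 1.42.0 were alternatives. Libraries of a group differed beyond sampling noise, those labelled KO more than those labelled CTRL. Chi-square per degree of freedom was 16.7 to 18.4 between CTRL libraries. It was 27.1 for KO 147 with 148, 175.7 for KO 146 with 147 and 298.6 for KO 146 with 148. Each library is 1 mouse, and the labels name no batch. Counts limit precision by sampling error, and the least counted of the 9 genes had 853 reads or more.

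The 9 genes and all lists were chosen with earlier results of these data known. Named were all 9 genes, every called gene of the salt transport list or else the 4 smallest p in each direction, the 3 nearest profiles per gene (reported in full for Kcnj1, Slc12a3, Scnn1a and Scnn1b), and Arhgef7. The comparison with proximal tubule markers, the principal transcript lengths and the counts of non-overlapping genes were added after the data were seen. Genes named beyond this rule (Gata3, Ddx3y, Xist, Fkbp5, Tsc22d3, Zbtb16, the overlapping genes) were chosen after their values were seen.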

Additional observations from a re-analysis of the deposited data

How the results depend on the processing

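The 9 genes kept a negative log2 fold change in all alternatives but the covariate fits, with 4 passing without KO 146, 1 without KO 148 and 0 without any other library. Over all genes, 173 passed, against 960 with no filter on low counts, 289 with the glomerular covariate, 2959 in DESeq2, and 2974, 2 and 3211 without KO 146, 147 and 148 and 2, 3 and 10 without CTRL 157, 162 and 163; of the wider list 0 passed, against 3 with no filter, 5 in DESeq2, 5 without KO 146, 7 without KO 148 and 0 without any other library. Genes not overlapping with KO lower numbered 4, and 4 to 8 with a library left out, the 8 without KO 148; fewer libraries can only keep or raise this count. The cause of these moves was not tested. Scaling by library totals moved the median of all genes from -0.006 to 0.132 and that of the 9 genes to -0.20, and the share of calls that were higher from 58.4% to 69.5%.

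With the proximal tubule covariate the values turned to 0.08 (Slc12a1), 0.63 (Slc12a3), 0.47 (Umod), 0.14 (Scnn1a), 0.17 (Scnn1b), 0.03 (Scnn1g), 0.46 (Kcnj1), 0.30 (Nr3c2), 0.05 (Hsd11b2), -0.20 (Slc12a2), -0.02 (Oxsr1) and -0.00 (Per1). With the glomerular covariate they were 0.15, 0.71, 0.56, 0.20, 0.22, 0.05, 0.53, 0.35 and 0.09 for the same 9 genes, -0.26 for Slc12a2 and -0.03 for Oxsr1. With 1 library left out, ratio differences crossed 0 for Umod to Slc12a1 (-0.11 to 0.18), Kcnj1 to Slc12a1 (-0.11 to 0.13), Slc12a3 to Slc12a1 (-0.21 to 0.14), Scnn1a to Scnn1b (-0.12 to 0.02) and Scnn1g to Scnn1b (-0.03 to 0.10), and so did the level of Hsd11b2 relative to proximal tubule markers (-0.04 to 0.11). No paired analysis was possible because the groups share no animal number.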
